A study of Mus musculus with 2 samples.

Results

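Potassium channel genes are described here across the nuclear classes of the mouse hippocampus for a control library and a library labelled KO. The members are the 93 genes, of 33696 in the count tables, whose symbol starts with Kcn followed by family letters and a number. Symbols ending in os, which mark opposite-strand transcripts, were left out (4 rows), and so was 1 further symbol. The symbol rule also takes in Kcnq1ot1, a noncoding RNA, which is counted but encodes no channel. Of the 93 members, 76 had at least 20 UMIs (unique molecular identifiers, each standing for 1 captured RNA molecule) over both libraries in at least 1 of 17 classes. Kcnk15 and Kcnk16 had 0 UMIs in both libraries. The remaining members under 20 UMIs in every class were Kcna5, Kcna7, Kcna10, all 5 Kcne genes (Kcne1, Kcne1l, Kcne2, Kcne3 and Kcne4), Kcnj1, Kcnj8, Kcnj15, Kcnk18, Kcnmb1, Kcnmb3 and Kcnn4.

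Both groups are single libraries from the hippocampus at postnatal day 19. The control mice were homozygous for a floxed allele of Cic (genotype Cicflox/flox), and the mice labelled KO carried the same alleles with Emx1-Cre (Emx1-Cre; Cicflox/flox). Each library pooled tissue of 3 mice, 2 males and 1 female, so there was no replicate library, and no difference below could be tested. Intervals are 95% intervals that cover counting error only, not variation between mice or preparations. Emx1-Cre acts in the dorsal telencephalic lineage, which gives rise to excitatory neurons, astrocytes and much of the oligodendrocyte lineage of the hippocampus, while its interneurons and microglia arise elsewhere. Cic encodes Capicua, a transcriptional repressor of genes that respond to receptor tyrosine kinase signalling.

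Potassium channels let potassium leave the cell and so set the resting potential, shape the spike and limit repetitive firing. Voltage-gated Kv channels are tetramers, and their type sets where and when they act: Kv1 at axons, Kv2 at the soma, Kv3 in fast-spiking cells, Kv4 in dendrites, where it carries a transient current tuned by the KChIP proteins of the Kcnip genes. Calcium- and sodium-activated channels, Kv7 and EAG-type channels, inward rectifiers of the Kcnj genes and tandem-pore leak channels of the Kcnk genes complete the family. In the hippocampus these channels set how readily granule and pyramidal cells fire and how glia buffer potassium.

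The control library held 25907 barcodes and 314453640 UMIs, and the library labelled KO held 23207 barcodes and 252995761 UMIs. After filters and removal of called doublets, 21783 and 20569 nuclei were used, with medians of 9786 and 8765 UMIs. In the matrices 175 barcode sequences occurred in both libraries, 128 of them among the nuclei used. Class totals ran from 1015073 UMIs in control Cajal-Retzius-like nuclei to 54405895 UMIs in control dentate granule-like nuclei. Cic itself had 493 control UMIs and 483 UMIs labelled KO in granule nuclei, 9.06 and 12.4 CPM (counts scaled to the UMI total of the class). Over the 17 classes its log2 ratio, labelled KO over control, ran from -0.12 in CGE interneuron-like to 0.94 in CA1-like nuclei (6.32 and 12.2 CPM), and it was also past 1.5-fold on the higher side in CA3-like (0.76), oligodendrocyte-like (0.76) and deep-layer excitatory-like nuclei (0.63). A count at the 3′ end need not fall when floxed exons are removed, so this level does not check the label. Etv4, a Capicua target gene, had 55 and 4380 UMIs in the same nuclei, a log2 ratio of 6.78 (6.41 to 7.20). Etv4 was also higher in MGE interneuron-like nuclei (32 and 85 UMIs, log2 ratio 1.69) and in microglia-like nuclei (14 and 83 UMIs, log2 ratio 2.83), classes outside the Emx1 lineage. Etv5, Spred3 and Shc3, also chosen to check the label, had log2 ratios of -0.15, 0.18 and -0.23 in MGE interneuron-like nuclei. In microglia-like nuclei they had 0.94, 0.92 and 1.93, and in granule nuclei 5.94, 2.66 and 3.65. Free RNA from other cells as a source of the counts outside the Emx1 lineage was not tested. Classes were named from fixed marker genes after clustering without the potassium channel genes, so no member defined a class.

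Of the 68 members with a RefSeq promoter window (GRCm38.p6, 250 bases before to 50 after a start site), 4 held an octamer of the type that Capicua binds. All 4 genes carry results below, and 3 of the sequences are shown. These 4 were among 33 of the 68 members with a window that were past 1.5-fold in some class. No link between octamer and ratio was tested. The octamers searched on both strands were TGAATGAA, TGAATGGA, TCAATGAA and TCAATGGA. At least 1 of them was found in the windows of 5.88% of members and of 4.45% of all 27025 genes with a window, so the members' share was near that of all genes. The capitals below mark the octamer, each read on the opposite strand of the motif as spelled above, within 30 bases printed in the direction of transcription.
Kcnip1: ccctggcgctgTTCATTCAtgattggtact
Kcnj10: cgccgggccccTCCATTCAcacaaagtttg
Kcnip4: ttacatgctgaTTCATTGAtgagctggcat
The Kcnip1 octamer lay 2 bases past the start in the window chr11:33843637-33843936 (minus strand), 1 of 3 windows of that gene. The Kcnj10 octamer lay 9 bases before the start in chr1:172340960-172341259 (plus strand), and the Kcnip4 octamer 79 bases before the start in chr5:49285610-49285909 (minus strand). A match describes these letters only, and binding was not measured.

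The classes differed in which potassium channels they held, and 49 of the 71 members with at least 100 UMIs in some class had their highest CPM in the same class in both libraries. Of the 11 inward rectifier genes among those 71, 4 (Kcnj3, Kcnj4, Kcnj6 and Kcnj9) had their highest control CPM in dentate granule-like nuclei, and the other 7 in glial, progenitor or Cajal-Retzius-like classes. Kcnj10, the main potassium-buffering rectifier of glia, had 129 CPM in control radial glia-like, 103 CPM in astrocyte-like and 74.1 CPM in oligodendrocyte-like nuclei, against 1.31 CPM in dentate granule-like nuclei. Kcnj16, its partner subunit, had 60.1 CPM in control astrocyte-like and 46.4 CPM in oligodendrocyte precursor-like nuclei. Kcnj5, a G protein-gated rectifier subunit, had 99.5 CPM in control Cajal-Retzius-like nuclei and 85.9 CPM in those of the library labelled KO, and the median over the other classes was 0.0942 and 0.117 CPM. In microglia-like nuclei the tandem-pore channel genes stood out: Kcnk13 had 277 and 244 CPM (control, then labelled KO) and Kcnk6 had 106 and 110 CPM.

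Among neurons, Kcnc2, a fast-spiking Kv3 channel gene, had 3551 CPM in control MGE interneuron-like nuclei and 3450 CPM in the library labelled KO. Kcnmb2, an inactivating beta subunit of the BK channel, had 1408 and 1363 CPM in the same class, the highest of its 17 classes. Kcns3, a silent Kv subunit that assembles with Kv2 channels, had 96.9 and 97.8 CPM there. Kcnq5, a Kv7 channel gene, was highest in CA3-like nuclei, at 5321 and 5448 CPM, and in CA2-like nuclei, at 5210 and 4131 CPM. Kcnab1, a Kv1 beta subunit, was highest in CA1-like nuclei, at 987 and 747 CPM. The silent subunit gene Kcng3 was highest in dentate granule-like nuclei (22.7 and 29.9 CPM). Kcng2, another silent subunit gene, had 80.9 and 69.9 CPM there, its highest class in the control, while CA2-like nuclei were highest in the library labelled KO. Kcnh8, an EAG-family gene, led in oligodendrocyte precursor-like nuclei with 379 and 391 CPM.

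**Figure D1:**
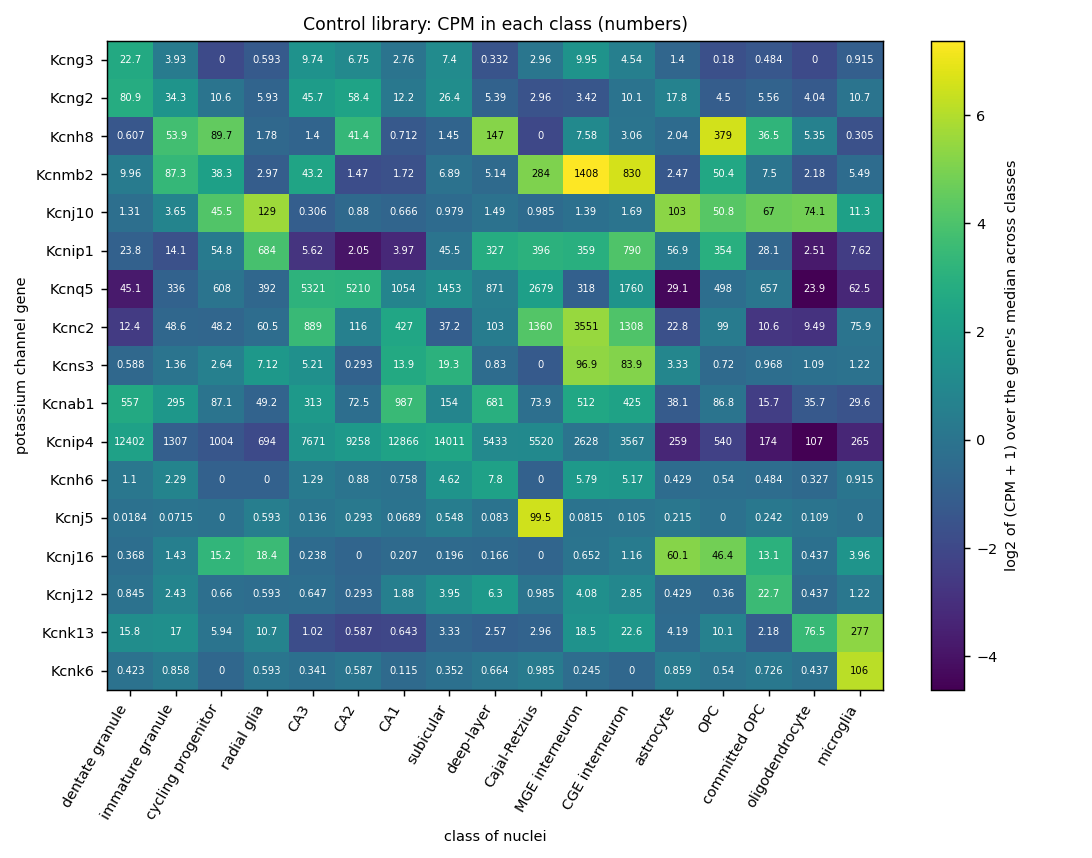
CPM of the potassium channel genes that lead each class, in the control library; columns are the 17 classes, numbers are CPM and colour is the log2 of CPM + 1 over the gene's own median across classes. Kcnj5 stands out in Cajal-Retzius-like nuclei at 99.5 CPM, Kcnk6 in microglia-like nuclei at 106 CPM and Kcnmb2 in MGE interneuron-like nuclei at 1408 CPM.

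The comparison of the libraries asks how potassium channel expression differed where Capicua was to be removed, in granule cells, whose mossy fiber axons reach CA3, in CA3 and CA1 pyramidal cells, and in the other classes. Changes are given as log2 ratios of CPM, labelled KO over control, with 0.5 UMI added to each sum. A member is counted by size when it had at least 100 UMIs in a class over both libraries and differed by at least 1.5-fold or at least 2-fold. The share of all genes past the same size is the background.

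In dentate granule-like nuclei the largest difference was in Kcnip1, a KChIP that tunes Kv4 channels. It had 1294 UMIs (23.8 CPM) in the control and 6774 UMIs (173 CPM) in the library labelled KO, a log2 ratio of 2.86 (2.78 to 2.95), or 7.29-fold. Lower were Kcnh4, an EAG-family gene, Kcnv1, a silent Kv subunit, and Kcnmb2, each past 2-fold. Past 1.5-fold were 13 of 63 members (20.6%), against 10.2% of the 14058 genes of the class. Of these, 5 were higher (background 6.08%) and 8 lower (background 4.15%). Past 2-fold were 4 members, against 4.27% of genes. Over members with 20 UMIs or more the log2 ratio had a median of 0.01, and over all such genes 0.03.

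Of the auxiliary subunit genes of granule nuclei, 1 of 4 KChIP, 1 of 2 BK beta and 0 of 3 Kv1 beta passed 1.5-fold. The background was 10.2% of genes. Kcnip1 was higher, while Kcnip4, another KChIP gene, had 12402 and 12003 CPM, a log2 ratio of -0.05 (-0.05 to -0.04). Kcnmb2 had 542 UMIs in the control and 175 UMIs in the library labelled KO, 9.96 and 4.48 CPM, a log2 ratio of -1.15 (-1.41 to -0.91). The other BK beta gene, Kcnmb4, had 83.8 and 84.0 CPM. Over the whole class Kcnip1 thus lay above, and Kcnmb2 below, 2 relatives that were nearly level. The lower Kcnmb2 value was not found within the granule cluster that held most nuclei labelled KO, as given below.

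The Kv4 channel gene Kcnd3, which Kcnip1 can bind as a protein, had 19494 and 7079 UMIs in granule nuclei, 358 and 181 CPM, a log2 ratio of -0.98 (-1.02 to -0.94). Its paralog Kcnd2 had 5076 and 4203 CPM, a log2 ratio of -0.27. The ERG channel gene Kcnh7 had 470 and 275 CPM, a log2 ratio of -0.78, from 25596 and 10738 UMIs. Kcnh4 was scarce, with 187 UMIs (3.44 CPM) and 42 UMIs (1.07 CPM), a log2 ratio of -1.66 (-2.20 to -1.19). The silent subunit Kcnv1 had 652 and 200 UMIs (log2 ratio -1.23, -1.46 to -0.997), and Kcng1, another silent subunit, 1217 and 571 UMIs, a log2 ratio of -0.61. Thus the lower group held 1 Kv4 gene, 2 EAG-family genes, 2 silent subunits, 1 BK beta subunit, 1 tandem-pore gene and 1 inward rectifier.

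The inward rectifier in that group was Kcnj3, the G protein-gated subunit common to most neuronal channels of its kind, with 970 and 642 CPM and a log2 ratio of -0.60 (-0.62 to -0.57). Its partners Kcnj6 and Kcnj9 had log2 ratios of -0.24 and -0.04. The tandem-pore leak channel gene Kcnk9 had 20.8 and 12.1 CPM, a log2 ratio of -0.78 (-0.94 to -0.62). Higher in granule nuclei were Kcna6, a Kv1 gene (12.2 and 21.4 CPM, log2 ratio 0.81), Kcnq5 (45.1 and 74.6 CPM, log2 ratio 0.73), Kcnk3, a tandem-pore gene (129 and 151 UMIs, log2 ratio 0.70), and Kcnt1, a sodium-activated channel gene (98 and 112 UMIs, log2 ratio 0.67). The members nearest the threshold on the higher side were Kcnt1 inside it and Kcnn3 outside it, at 0.51. On the lower side they were Kcnj3 inside it and Kcnh1 outside it, at -0.53.

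The granule class was split by library. One cluster held 3513 of the 4430 control nuclei and 95 of the 3488 nuclei labelled KO, and the other held 917 and 3393. A cluster mostly of 1 library may be that library rather than a type. Within the second cluster, Kcnip1 had 43.9 and 174 CPM, a log2 ratio of 1.98. There Kcnd3 (-0.77), Kcnh7 (-1.0), Kcnh4 (-1.61), Kcnv1 (-1.02) and Kcnj3 (-0.61) were also lower past 1.5-fold. Kcnk9 went the other way in that cluster, at 6.92 and 11.95 CPM, and Kcnmb2 had 3.91 and 4.54 CPM. Their lower class values were thus not found in that cluster. At the finer clustering resolution of 2, granule-like clusters held 3503 and 90, 910 and 1554, 81 and 1672, and 84 and 355 nuclei (control, then labelled KO). Nuclei compared within the second cluster may thus differ in kind between the libraries, and a matched comparison was not made. Within the second cluster the log2 ratios of Kcna6, Kcnt1 and Kcng1 were 0.35, 0.36 and -0.35, and those of Kcnq5 and Kcnk3 were 0.65 and 1.65. In the whole class Kcnq5, Kcng1, Kcnt1 and Kcnj3 were under 1.5-fold in female nuclei (0.44, -0.31, 0.17 and -0.57) and Kcnk3 in male nuclei (0.38). Among nuclei of the first cluster Kcnip1 had 19.3 and 151 CPM.

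In immature dentate granule-like nuclei 2 of 54 members were past 1.5-fold, against 2.74% of genes. Kcnip1 had 197 and 388 UMIs, 14.1 and 32.3 CPM, a log2 ratio of 1.20 (0.95 to 1.45). It was the only member past 2-fold there (background 0.477%), and when the clustering used the members its log2 ratio was 0.63. Kcnc4, a Kv3 gene, had 65 and 90 UMIs, a log2 ratio of 0.69.

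**Figure D2:**
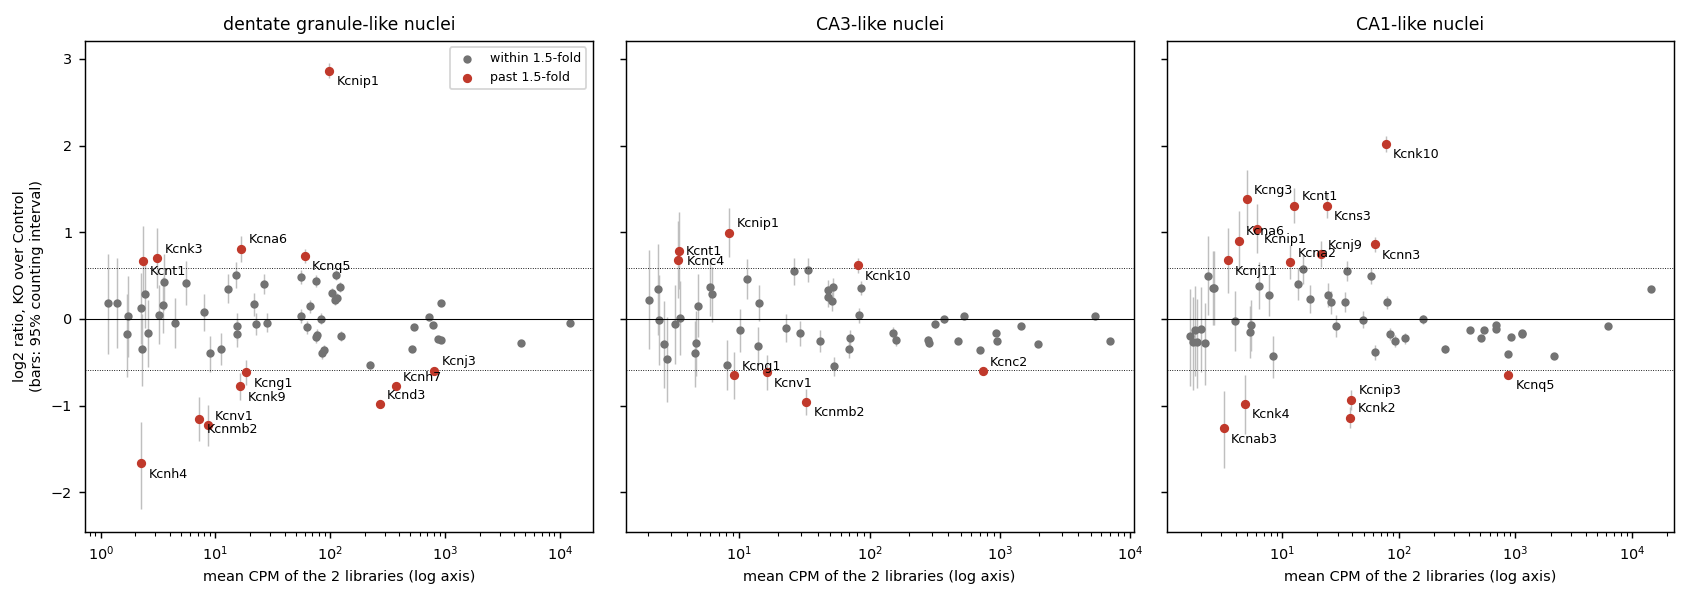
Log2 ratio of CPM, labelled KO over control, against the mean CPM of the 2 libraries (log axis) for members with at least 100 UMIs in granule, CA3-like and CA1-like nuclei; bars are 95% counting intervals, dotted lines mark 1.5-fold and red points lie past it. Kcnip1 in granule nuclei (2.86) and Kcnk10 in CA1-like nuclei (2.02) stand above all other members of their class.

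In CA3-like nuclei no member reached 2-fold, against 2.10% of 12777 genes past that size. Past 1.5-fold were 8 of 54 members (14.8%), against 7.38% of genes, 4 higher (background 5.31%) and 4 lower (background 2.07%). Kcnmb2 had 1269 UMIs (43.2 CPM) in the control and 540 UMIs (22.2 CPM) in the library labelled KO, a log2 ratio of -0.96 (-1.11 to -0.81). Kcnc2 had 26100 and 14211 UMIs, 889 and 585 CPM, a log2 ratio of -0.60 (-0.63 to -0.57). The silent subunits Kcng1 and Kcnv1, both lower in granule nuclei too, had log2 ratios of -0.65 and -0.62. The median over members was -0.10, and over all genes 0.08.

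Higher in CA3-like nuclei was Kcnip1, with 165 and 272 UMIs, 5.62 and 11.2 CPM, a log2 ratio of 0.99 (0.71 to 1.28). Kcnk10, a mechanically and lipid-gated tandem-pore channel gene, had 64.1 and 98.4 CPM, a log2 ratio of 0.62. Kcnt1 (77 and 102 UMIs) and Kcnc4 (75 and 107 UMIs) had log2 ratios of 0.68 and 0.78, and Kcnc4 was at -0.69 when each nucleus was thinned to 2000 UMIs. Thinning left Kcng1 at -0.37, female nuclei alone gave 0.49 for Kcnt1, male nuclei alone gave -0.37 for Kcnv1 and -0.49 for Kcnc2, and either other scaling gave 0.53 for Kcnk10, all under 1.5-fold. Kcnq5, the Kv7 gene that leads this class, had a log2 ratio of 0.03. The CA3-like class held 2 clusters with similar numbers from each library. In the larger one, of 938 and 862 nuclei, Kcnmb2 had 50.8 and 23.3 CPM, and in the smaller one, of 291 and 303 nuclei, it had 11.9 and 18.04 CPM, so the lower value lay in the larger cluster.

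In CA1-like nuclei Kcnk10 differed most. It had 1335 UMIs (30.7 CPM) in the control and 3830 UMIs (124 CPM) in the library labelled KO, a log2 ratio of 2.02 (1.93 to 2.11). Its relatives Kcnk2 and Kcnk4, which encode the other channels of the same mechanically gated branch, differed in the opposite direction. Kcnk2 had 2305 and 741 UMIs, 52.9 and 24.0 CPM, a log2 ratio of -1.14 (-1.26 to -1.02), and Kcnk4 had 276 and 99 UMIs (log2 ratio -0.98, -1.33 to -0.65). Past 1.5-fold were 15 of 59 members (25.4%), against 11.7% of 13361 genes, 10 higher (background 8.11%) and 5 lower (background 3.56%). Past 2-fold were 7 members (11.9%), against 4.31% of genes. The median over members was -0.05 and over all genes 0.09.

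Among Kv subunits of CA1-like nuclei, the silent subunits Kcns3 (605 and 1060 UMIs, 13.9 and 34.4 CPM, log2 ratio 1.31) and Kcng3 (120 and 222 UMIs, log2 ratio 1.38) were higher. So were the Kv1 genes Kcna6 (129 and 171 UMIs, log2 ratio 0.90) and Kcna2 (397 and 443 UMIs, log2 ratio 0.66). Kcnab3, a Kv1 beta subunit, had 194 and 57 UMIs (log2 ratio -1.26, -1.72 to -0.84). Kcnq5 had 1054 and 675 CPM, a log2 ratio of -0.64. The KChIP genes were split, with Kcnip1 at 173 and 252 UMIs (log2 ratio 1.04) and Kcnip3 at 51.2 and 26.8 CPM (log2 ratio -0.93).

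Calcium- and sodium-activated and inwardly rectifying channel genes in CA1-like nuclei were higher where they passed 1.5-fold. Kcnt1 had 319 and 559 UMIs (log2 ratio 1.31, 1.11 to 1.51), and Kcnn3, a small-conductance calcium-activated channel gene, had 44.0 and 80.0 CPM, a log2 ratio of 0.86. Kcnj9 had 16.0 and 26.8 CPM (log2 ratio 0.75), and Kcnj11, which encodes the pore of ATP-sensitive channels, had 114 and 129 UMIs (log2 ratio 0.68). The nearest members outside the threshold were Kcng2 at 0.58 and Kcnv1 at -0.43, next to Kcna2 at 0.66 and Kcnq5 at -0.64 inside it.

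CA1-like nuclei were split by library as well: 1 cluster held 1295 control nuclei and 22 labelled KO, the other 956 and 1803. Within the second cluster Kcnk10 had 35.7 and 124 CPM, a log2 ratio of 1.80. Kcnip3 (-1.18), Kcnk4 (-1.11), Kcnt1 (0.90), Kcnj11 (0.86), Kcns3 (0.78) and Kcnk2 (-0.76) were past 1.5-fold there too. When each nucleus was thinned to 2000 UMIs, Kcnj11 had a log2 ratio of 0.18, under the threshold, while Kcnip1 and Kcnk4 had 2.08 and -1.84, and 8 members of the class were past 1.5-fold. Within the second cluster Kcnip1 had 7.88 and 8.24 CPM, Kcnq5 655 and 671 CPM, and Kcna6 5.12 and 5.61 CPM, so these differences were not found among nuclei of 1 cluster. Kcna2, Kcnj9, Kcng3, Kcnn3 and Kcnab3 lay between 0.28 and 0.53 or, for Kcnab3, at -0.51. At the finer clustering resolution of 2, CA1-like clusters held 1293 and 22, 443 and 1324, and 409 and 416 nuclei (control, then labelled KO). Nuclei compared within the second cluster may thus differ in kind between the libraries here as well.

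**Figure D3:**
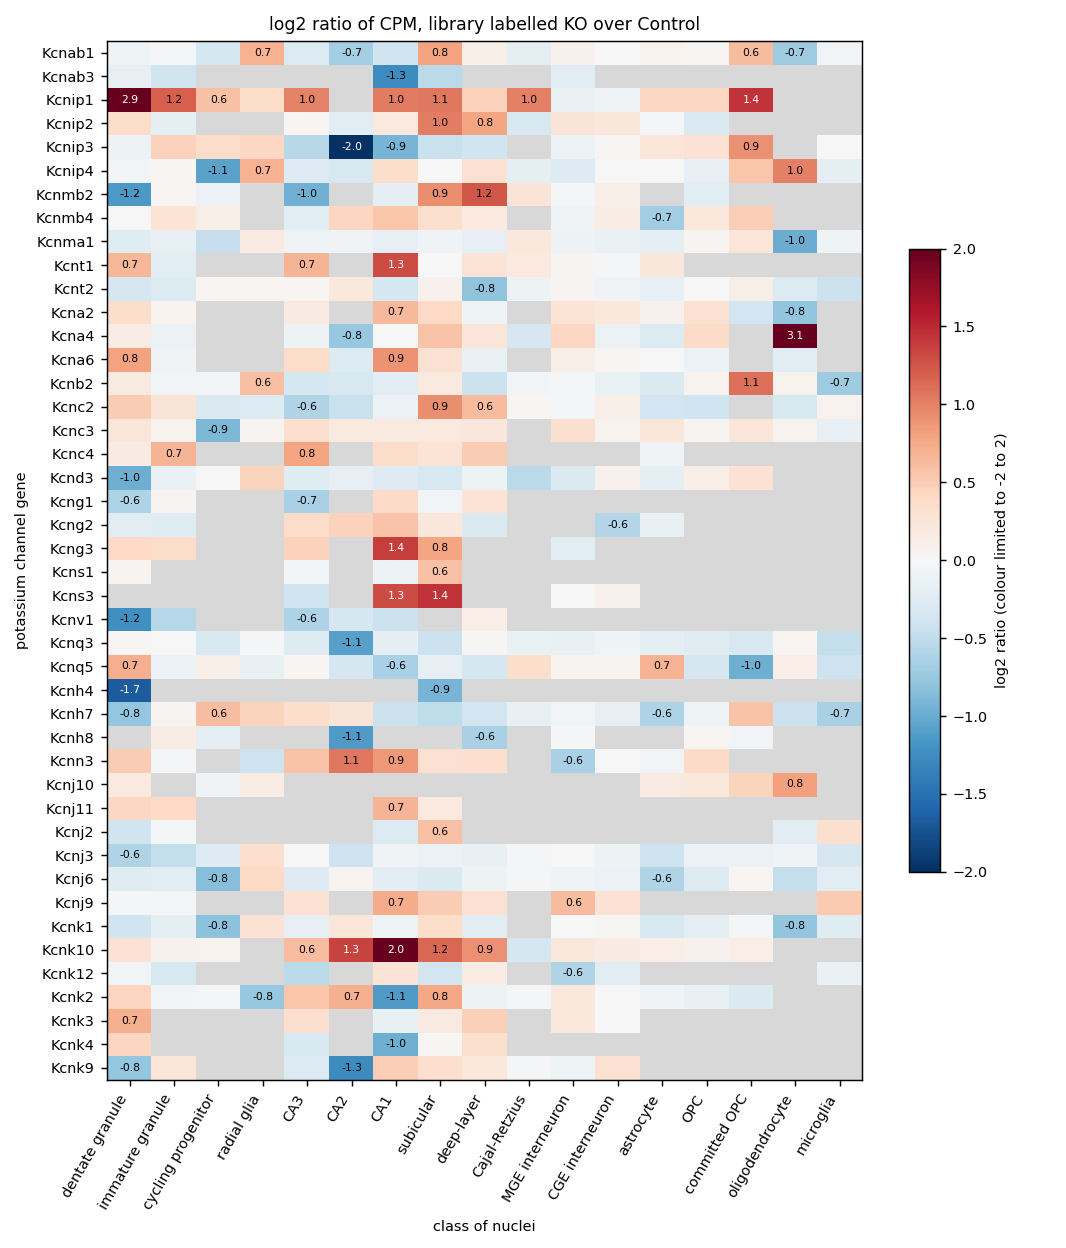
Log2 ratio of CPM, labelled KO over control, of the 44 members past 1.5-fold in at least 1 class, ordered by channel family (rows), in 17 classes (columns); values are printed where they pass 1.5-fold and grey cells had under 100 UMIs. Kcnip1 and Kcnk10 are the rows higher in the most classes, 8 and 5 of 14. The columns of MGE and CGE interneuron-like, microglia-like and oligodendrocyte precursor-like nuclei hold 3, 1, 2 and 0 printed values. These are of 47, 46, 26 and 36 members, against backgrounds of 1.87%, 1.78%, 2.53% and 1.76% of genes.

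Kcnip1 was past 1.5-fold on the higher side in 8 of the 14 classes where it had at least 100 UMIs, past 2-fold in 6 of them, and past 1.5-fold on the lower side in 0. In CA1-like nuclei, 1 of these classes, its log2 ratio was 0.06 within the cluster that held most nuclei labelled KO, under both sizes. Beside the granule, immature granule, CA3-like and CA1-like classes the others were subicular excitatory-like nuclei (45.5 and 94.5 CPM, log2 ratio 1.05), Cajal-Retzius-like nuclei (402 and 892 UMIs, log2 ratio 1.01), committed oligodendrocyte precursor-like nuclei (116 and 285 UMIs, log2 ratio 1.44) and cycling progenitor-like nuclei (83 and 99 UMIs, log2 ratio 0.59, and 0.10 in female nuclei). Cajal-Retzius-like nuclei had 396 and 798 CPM. The libraries were close in the interneuron classes: 359 and 328 CPM in MGE interneuron-like and 790 and 752 CPM in CGE interneuron-like nuclei. Radial glia-like nuclei had 684 and 882 CPM, a log2 ratio of 0.37, and oligodendrocyte precursor-like nuclei 354 and 472 CPM. In microglia-like nuclei Kcnip1 had 25 and 24 UMIs. In the control the Kcnip1 level of granule nuclei (22.5 to 25.1 CPM) overlapped that of committed oligodendrocyte precursor-like nuclei (23.2 to 33.7 CPM) and lay under that of astrocyte-like nuclei (56.9 CPM). In the library labelled KO, at 173 CPM, it lay above both (76.6 and 75.7 CPM). On its own strand Kcnip1 overlaps a further counted gene in the GENCODE annotation of GRCm38, as do Kcnd3, Kcnk2 and Kcnk4, and how reads were divided between them is not given in the sources used here.

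Kcnk10 was past 1.5-fold on the higher side in 5 of 14 classes and past 2-fold in 3, and on the lower side in 0. After CA1-like nuclei came CA2-like nuclei with 120 and 225 UMIs (log2 ratio 1.34, 1.02 to 1.68) and subicular excitatory-like nuclei with 58.3 and 130 CPM (log2 ratio 1.15, 1.07 to 1.24). All 5 classes were named for excitatory neurons: CA1-, CA2-, CA3-like, subicular and deep-layer (32.9 and 62.2 CPM, log2 ratio 0.92). Granule nuclei had 93.5 and 115 CPM. The Kcnk10 level of CA1-like nuclei thus lay under that of granule nuclei in the control and above it in the library labelled KO. Oligodendrocyte precursor-like nuclei, with the highest level, had 245 and 260 CPM, and MGE interneuron-like nuclei 22.3 and 25.7 CPM.

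**Figure D4:**
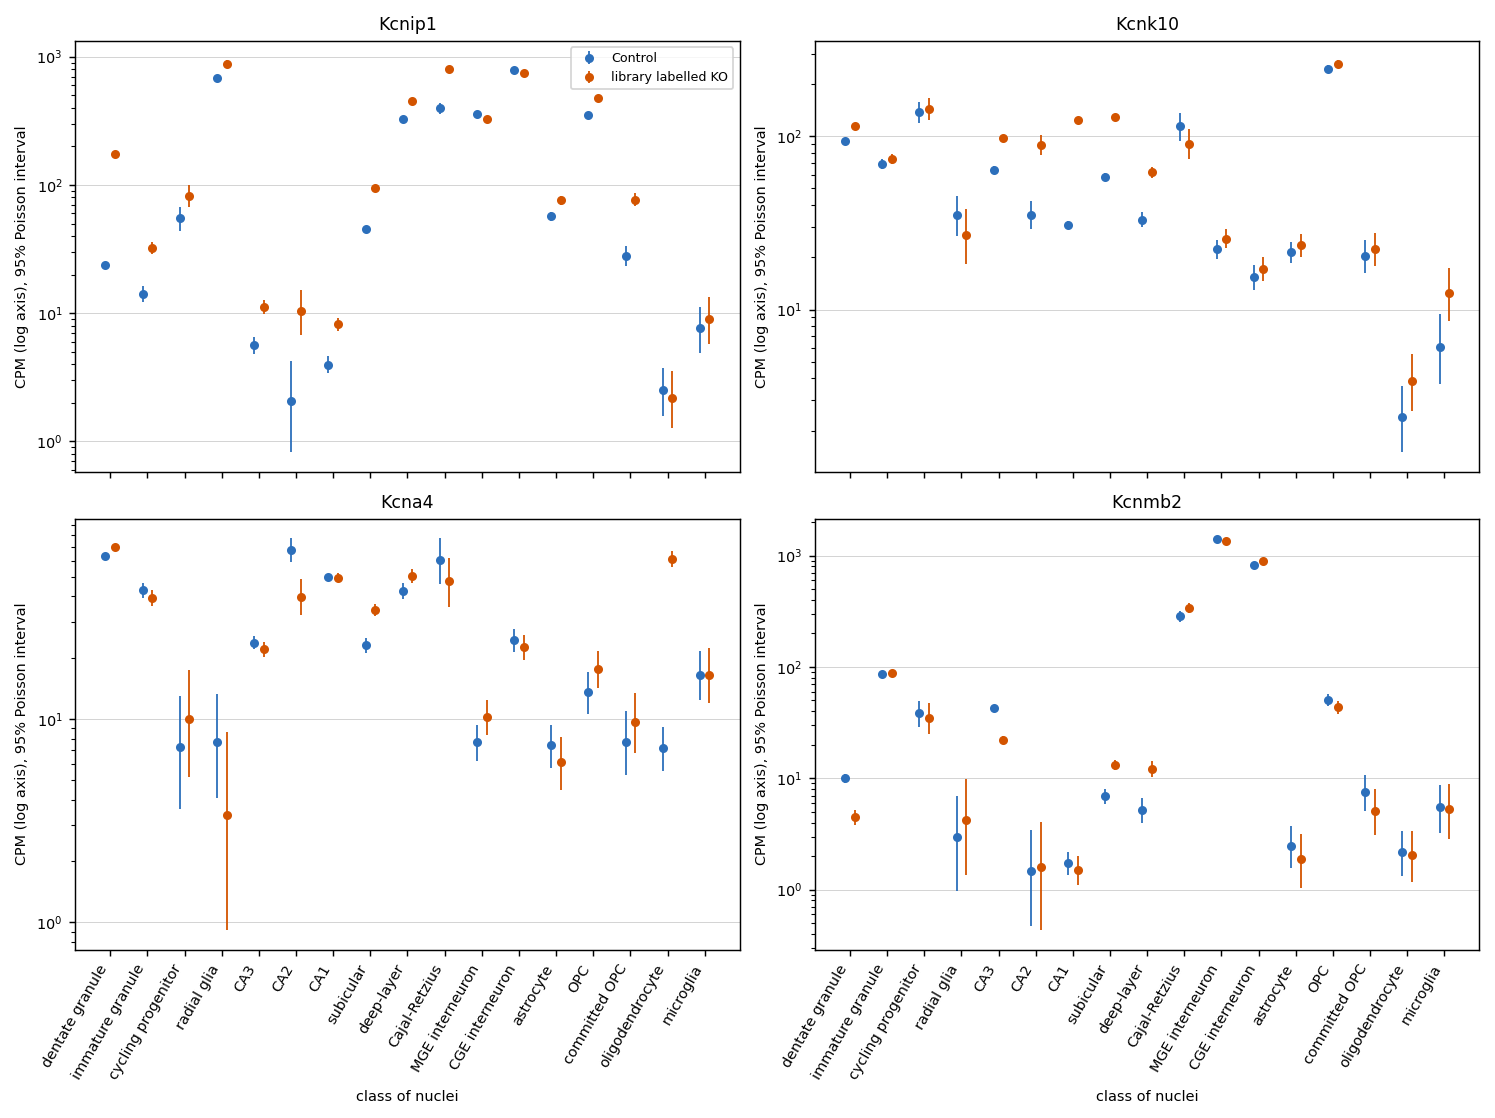
CPM (log axis) with 95% Poisson intervals of Kcnip1, Kcnk10, Kcna4 and Kcnmb2 in 17 classes, in the control library (blue) and the library labelled KO (orange). Kcnip1 differs most in granule nuclei (23.8 and 173 CPM), Kcnk10 in CA1-like nuclei (30.7 and 124 CPM) and Kcna4 in oligodendrocyte-like nuclei (7.20 and 61.2 CPM).

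In oligodendrocyte-like nuclei Kcna4, which encodes a rapidly inactivating Kv1 channel, differed most of all pairs of member and class with at least 100 UMIs. It had 66 UMIs in 1113 control nuclei and 474 UMIs in 890 nuclei labelled KO, 7.20 and 61.2 CPM, a log2 ratio of 3.08 (2.71 to 3.48). Per nucleus this was 0.0593 and 0.533 UMIs, beside 0.0362 and 0.0298 UMIs in microglia-like nuclei, a class of other origin. Both oligodendrocyte clusters showed it, with 7.88 and 60.9 CPM in the larger and 5.33 and 61.6 CPM in the smaller. With called doublets kept its log2 ratio was 2.19. At the finer clustering resolution of 2, oligodendrocyte-like clusters held 668 and 187, 226 and 404, and 219 and 299 nuclei (control, then labelled KO). Nuclei compared in this class, or within its clusters, may thus differ in kind between the libraries, and a matched comparison was not made. In granule and CA1-like nuclei Kcna4 had log2 ratios of 0.15 and -0.01. In committed oligodendrocyte precursor-like nuclei, the preceding stage, it had 32 and 36 UMIs.

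Past 1.5-fold in oligodendrocyte-like nuclei were 7 of 25 members (28.0%), against 9.61% of 9402 genes, 3 higher (background 4.62%) and 4 lower (background 5.00%). Past 2-fold were 2 members, against 3.05% of genes. Kcnj10 had 679 and 1011 UMIs, 74.1 and 131 CPM, a log2 ratio of 0.82 (0.67 to 0.96), while its log2 ratio in astrocyte-like nuclei was 0.18. Kcnma1, the pore of the BK channel, had 625 and 266 UMIs (log2 ratio -0.99, -1.20 to -0.78), and with called doublets kept its log2 ratio was -0.54, under 1.5-fold. The Kv1 gene Kcna2 (220 and 107 UMIs, log2 ratio -0.79), its beta subunit Kcnab1 (327 and 168 UMIs, log2 ratio -0.72) and the tandem-pore gene Kcnk1 (162 and 79 UMIs, log2 ratio -0.79) were lower, and Kcna1 had a log2 ratio of -0.50. Thinned to 2000 UMIs, Kcna2 was at -0.52. The median over members was -0.22 and over all genes -0.09.

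Kcnip4 in oligodendrocyte-like nuclei had 107 and 216 CPM, a log2 ratio of 1.02, but its clusters differed: 116 and 88.0 CPM in the larger, of 901 and 611 nuclei, and 79.9 and 433 CPM in the smaller, of 212 and 279 nuclei. With called doublets kept its log2 ratio was -0.44, and with free RNA subtracted 2.15. Kcnip4 had 12402 CPM in control granule nuclei, and the part of neuronal RNA in these counts was not tested. In committed oligodendrocyte precursor-like nuclei 5 of 27 members were past 1.5-fold, against 4.75% of genes, and 2 past 2-fold, against 1.18%. Beside Kcnip1 these were Kcnb2, a Kv2 gene (282 and 544 UMIs, log2 ratio 1.10), Kcnip3 (45 and 77 UMIs), Kcnab1 (65 and 91 UMIs) and, lower, Kcnq5 (657 and 334 CPM, log2 ratio -0.98). With called doublets kept, the log2 ratios of Kcnb2 and Kcnab1 there were 0.31 and 0.02.

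Subicular excitatory-like nuclei had 11 members higher and 1 lower past 1.5-fold, of 63, against backgrounds of 7.28% and 2.03% (9.31% in either direction). Past 2-fold were 4, all higher, against 2.48% of genes on that side: Kcns3 (492 and 1424 UMIs, log2 ratio 1.44), Kcnk10, Kcnip1 and Kcnip2, a KChIP of principal neurons (397 and 860 UMIs, log2 ratio 1.02). Kcns3 was therefore past 2-fold in both CA1-like and subicular nuclei, and it had 96.9 and 97.8 CPM in MGE interneuron-like nuclei. Kcnmb2 in subicular nuclei had 6.89 and 13.1 CPM, but in male nuclei 9.12 and 9.72 CPM and in female nuclei 0.915 and 19.8 CPM (5 and 182 UMIs), so the difference lay in nuclei of the 1 female mouse of each pool. Deep-layer excitatory-like nuclei had 6 of 51 members past 1.5-fold, against 5.97% of genes. The member past 2-fold there (background 1.36%) was Kcnmb2, with 62 and 143 UMIs, a log2 ratio of 1.24 (0.80 to 1.70), of which female nuclei gave 0.07 and male nuclei 1.86, and with called doublets kept it was 0.10.

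CA2-like nuclei, 140 from the control and 120 labelled KO, had 9 of 35 members past 1.5-fold, against 9.96% of 5885 genes, and 6 past 2-fold, against 2.79%. Kcnip3 had 231 and 43 UMIs, 67.8 and 17.1 CPM, a log2 ratio of -1.97 (-2.49 to -1.51). Kcnq3, a Kv7 gene, had 1147 and 400 UMIs, a log2 ratio of -1.08, and Kcnk9 (82 and 25 UMIs) and Kcnh8 (141 and 47 UMIs) had log2 ratios of -1.25 and -1.13. Kcnn3 had 84 and 129 UMIs, at 1.06 on the log2 scale. When each nucleus was thinned to 2000 UMIs, the log2 ratios of Kcnk10, Kcnn3 and Kcnh8 were 0.65, 0.35 and -2.10, and with called doublets kept that of Kcnip3 was -1.28. Kcnk2 had a log2 ratio of 0.72 in CA2-like nuclei, against -1.14 in CA1-like nuclei. With called doublets kept its CA2-like value was 0.58, just under 1.5-fold. All genes had a median log2 ratio of 0.11 in this class, and scaling by median of ratios or by trimmed means shifted all values by -0.12 or -0.13.

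In the classes outside the Emx1 lineage, 3 of 47 members (6.38%) were past 1.5-fold in MGE interneuron-like nuclei (background 1.87%), 1 of 46 (2.17%) in CGE interneuron-like nuclei (background 1.78%) and 2 of 26 (7.69%) in microglia-like nuclei (background 2.53%). The shares in MGE interneuron-like and microglia-like nuclei thus lay above their backgrounds, on 3 and 2 members. The microglia members were Kcnb2 (log2 ratio -0.71), which did not keep its sign in both sexes, and Kcnh7 (log2 ratio -0.65). With called doublets kept, Kcnh7 was at 0.080 there. The MGE members were Kcnj9 (131 and 165 UMIs), Kcnk12, a tandem-pore gene (217 and 116 UMIs), and Kcnn3 (139 and 72 UMIs), none past 2-fold (background 0.119%). The log2 ratio of Kcnn3 was -1.57 in female and 0.20 in male nuclei, but each library had only 1 female mouse. That of Kcnj9 was 0.63, but 0.30 in male nuclei, under 1.5-fold. Kcnc2, Kcnmb2 and Kcnd2, of the Kv3, BK beta and Kv4 families, had log2 ratios of -0.04, -0.05 and 0.01. Past 1.5-fold were 4 of 37 members (10.8%) in astrocyte-like (background 2.83%) and 0 of 36 in oligodendrocyte precursor-like nuclei (background 1.76%), which arise in part from the Emx1 lineage. The astrocyte members were Kcnq5 (0.69) and, lower, Kcnh7 (-0.61), Kcnj6 (-0.60) and Kcnmb4 (-0.69). Each fell under 1.5-fold in an alternative. Kcnq5 was at -0.22 and Kcnmb4 at -0.16 in male nuclei, Kcnj6 at -0.42 in female nuclei, and Kcnh7 at -0.24 with free RNA subtracted. In astrocyte-like nuclei the channels of potassium buffering, Kcnj10 and Kcnj16, had log2 ratios of 0.18 (0.05 to 0.32) and 0.09 (-0.09 to 0.27). Counts were low for many members in these classes: 28 members of microglia-like and 24 of astrocyte-like nuclei had 20 to 99 UMIs, so a 1.5-fold difference of those members was not counted at this depth.

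Radial glia-like, cycling progenitor-like and Cajal-Retzius-like nuclei had 4 of 23 (background 5.31%), 6 of 27 (background 3.40%) and 1 of 25 members (background 5.55%) past 1.5-fold. Past 2-fold were 1 member of cycling progenitor-like (background 0.344%) and 1 of Cajal-Retzius-like nuclei (background 1.15%). In cycling progenitor-like nuclei Kcnip4 had 1522 and 576 UMIs (log2 ratio -1.06, -1.21 to -0.93), and Kcnh7 had 855 and 1317 CPM, a log2 ratio of 0.62 (0.34 at the finer clustering resolution of 2). In radial glia-like nuclei Kcnip4 had a log2 ratio of 0.70, but 1.03 in female and -0.22 in male nuclei. Kcnab1 and Kcnb2 did not keep their sign in both sexes there either. The remaining member, Kcnk2 (-0.76), was at -0.35 in female nuclei, under 1.5-fold.

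Nuclei were split by sex with Xist and Y-linked genes, which gives 1 female and 2 male mice per library and no replicates. All 13 granule, 8 CA3-like, 15 CA1-like and 7 oligodendrocyte-like members past 1.5-fold had the same sign in both sexes. These members were chosen on sums that include the same nuclei, so equal signs follow in part from that choice. They are no separate evidence, and the share of all genes with equal signs is not given here. Kcnip1 in granule nuclei had log2 ratios of 2.90 in female and 3.01 in male nuclei, Kcnk10 in CA1-like nuclei 1.99 and 2.05, and Kcna4 in oligodendrocyte-like nuclei 3.32 and 2.85. The sexes were farther apart for Kcna6 in CA1-like nuclei (1.74 female, 0.47 male) and Kcnt1 in granule nuclei (0.17 female, 1.14 male).

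**Figure D5:**
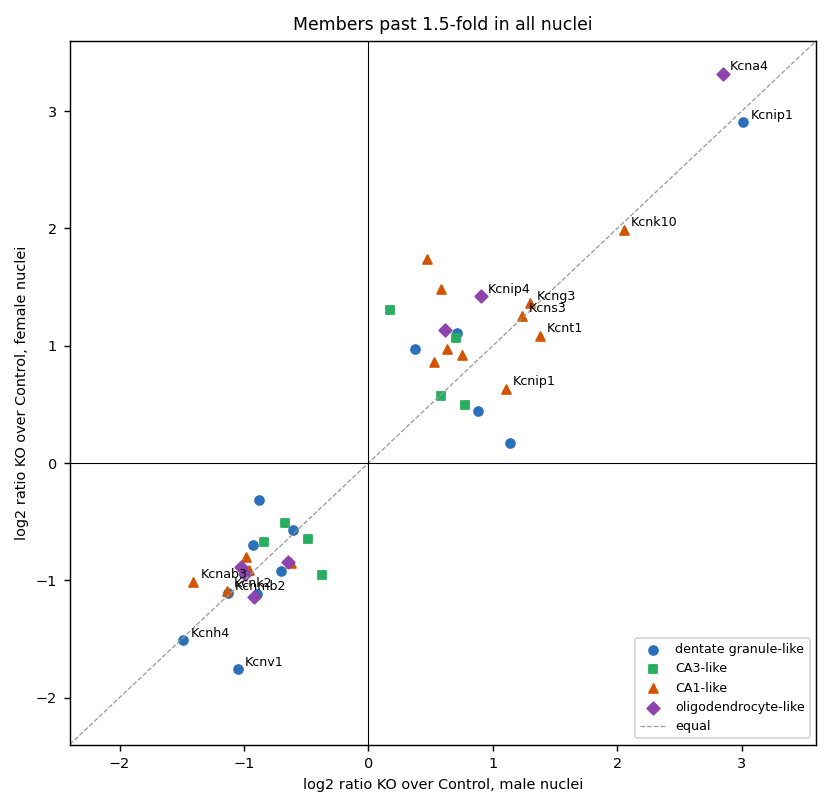
Log2 ratio, labelled KO over control, in female nuclei (y) against male nuclei (x) for members past 1.5-fold in 4 classes; the dashed line marks equal values. All points lie in the 2 quadrants of equal sign, with Kcna4 in oligodendrocyte-like and Kcnip1 in granule nuclei at the upper right.

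Of 35 genes whose products assemble with or act on potassium channels, 29 in granule nuclei and 28 in both CA3-like and CA1-like nuclei had at least 100 UMIs. Past 1.5-fold were 2 higher and 2 lower in granule nuclei, 1 higher in CA3-like nuclei and 2 lower in CA1-like nuclei. Among all genes 10.2%, 7.38% and 11.7% were past 1.5-fold in these classes, so the partner counts were near or below the background. Of the partners, 3 in granule nuclei and 1 each among CA3-like and CA1-like nuclei were past 2-fold, against 4.27%, 2.10% and 4.31% of genes, so at that size the granule count lay above the background. Cntnap2, which clusters Kv1 channels along axons, had 361 and 1028 CPM in granule nuclei, a log2 ratio of 1.51 (0.96 within the cluster that held most nuclei labelled KO). Chrm3, a muscarinic receptor that closes Kv7 channels, had 83.2 and 175 CPM (log2 ratio 1.08, and 0.14 within that cluster). In CA1-like nuclei Dpp10, an auxiliary subunit of Kv4 channels beside the KChIPs, had 72.7 and 25.0 CPM, a log2 ratio of -1.54. Its log2 ratio was -2.54 within the CA1-like cluster that held most nuclei labelled KO, at 146 and 25.1 CPM. In the other cluster, of 1295 control nuclei and 22 labelled KO, Dpp10 had 305 and 5 UMIs, 12.7 and 14.2 CPM. The lower value thus lay in the former cluster. In CA3-like nuclei Chrm2, the muscarinic receptor that opens G protein-gated rectifiers, had 64 and 168 UMIs, a log2 ratio of 1.66, from 2.39 in female and 0.54 in male nuclei.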

How the data were processed

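Nuclei of 2 libraries were profiled by droplet single-nucleus RNA sequencing. Raw UMI counts for each gene and barcode were deposited by the authors, and Cell Ranger 8.0.1 made them per the file headers, and the submitters' processing notes name mm39 as the build. Whether the counting used strand, and how reads shared by overlapping genes were divided, is not given in the sources used here; 33 members overlap another counted gene on the opposite strand and 4 on the same strand in the GENCODE annotation of GRCm38. The potassium channel genes and the lists were chosen with earlier results of these data known.

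Barcodes with fewer than 500 genes (835 and 161) or over 5% mitochondrial UMIs (12 and 3) were left out. Doublets called by the Scrublet method of scanpy 1.11.5 (expected rate 0.1) were left out: 3277 control barcodes (13.1%) and 2474 labelled KO (10.7%). Both libraries were clustered together with Python 3.11.15, scikit-learn 1.9.0 and leidenalg 0.10.2 on 3000 variable genes, 30 components, 15 neighbours and resolution 1, without members, partner genes, mitochondrial and sex-linked genes. Clusters were named "-like" after 24 marker sets (at least 3 markers raised). A rule that left unnamed a cluster over 3 times deeper than its library, with no own marker among its 10 leading genes, was set after the clusters were seen. Classes with at least 100 nuclei in each library entered.

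UMIs were summed per library and class. Ratios have exact conditional binomial and levels exact Poisson 95% intervals, for counting error only. With 1 library per group no test was made. Members were named where they were past 1.5-fold in granule, CA3-like or CA1-like nuclei or past 2-fold elsewhere, with 31 members always open to naming, the 2 leading members of each class, and partner genes past 2-fold in those 3 classes; others were chosen after their values were seen. Of 14 alternatives, 13 were planned, and 1 was chosen after seeing the data: it kept clusters with at least 100 nuclei in each library and weighted them by their control nuclei, which in granule and CA1-like nuclei leaves 1 cluster. A promoter sequence and a partner gene are not reported here.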

Additional observations from a re-analysis of the deposited data

Results flagged for a closer look

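Of the 44 members past 1.5-fold in some class, 12 were higher in one class and lower in another. The share of all genes that did so is not given here, so this count has no background. The differences between classes were not tested, since each group is 1 library. In units of log2 ratio, the higher class minus the lower, Kcna4 differed by 3.84 between oligodendrocyte-like (higher) and CA2-like nuclei (lower), Kcnip3 by 2.89 between committed oligodendrocyte precursor-like and CA2-like nuclei, and Kcnmb2 by 2.39 between deep-layer excitatory-like and dentate granule-like nuclei. The deep-layer log2 ratio of Kcnmb2 was 0.07 in female nuclei, and its granule log2 ratio 0.20 within the cluster that held most nuclei labelled KO. Kcnip4 differed by 2.08 between oligodendrocyte-like nuclei (-0.44 with called doublets kept) and cycling progenitor-like nuclei, and Kcnk2 by 1.91 between subicular excitatory-like and CA1-like nuclei. Kcnb2 differed by 1.81 between committed oligodendrocyte precursor-like and microglia-like nuclei, Kcnn3 by 1.70 between CA2-like and MGE interneuron-like nuclei, and Kcnq5 by 1.70 between dentate granule-like and committed oligodendrocyte precursor-like nuclei. Kcnc2 differed by 1.54 between subicular excitatory-like and CA3-like nuclei, Kcnab1 by 1.52 between subicular excitatory-like and oligodendrocyte-like nuclei, Kcna2 by 1.45 between CA1-like and oligodendrocyte-like nuclei, and Kcnh7 by 1.40 between cycling progenitor-like and dentate granule-like nuclei. Further ends of these differences fell under 1.5-fold in an alternative. With called doublets kept these were Kcna4 in CA2-like nuclei (-0.40) and Kcnb2 in committed oligodendrocyte precursor-like nuclei (0.31). With thinning they were Kcnn3 in CA2-like (0.35) and Kcna2 in oligodendrocyte-like nuclei (-0.52). With clusters weighted as in the control they were Kcnab1 in oligodendrocyte-like (-0.57) and Kcna2 in CA1-like nuclei (0.43). In female nuclei they were Kcnq5 in granule (0.44) and Kcnc2 in subicular nuclei (0.48), in male nuclei Kcnc2 in CA3-like (-0.49) and Kcnab1 in subicular nuclei (0.49), and at resolution 2 Kcnh7 in cycling progenitor-like nuclei (0.34).

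Of the members past 1.5-fold with at least 20 UMIs in each sex, female and male log2 ratios had opposite signs in 7 cases. These were also untested, and the male log2 ratio of Kcnk2 in subicular nuclei was only -0.0061. In 3 cases both sexes had at least 100 UMIs: Kcnk2 in subicular excitatory-like nuclei, with a female minus male log2 ratio of 1.59, Kcnq5 in astrocyte-like nuclei, with 1.49, and Kcnip4 in radial glia-like nuclei, with 1.25. The other 4, on fewer UMIs, were Kcnn3 in MGE interneuron-like nuclei, with -1.76, Kcnb2 in radial glia-like and microglia-like nuclei, with 1.83 and 1.34, and Kcnab1 in radial glia-like nuclei, with 0.34.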

How the results depend on the processing

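The 83 differences past 1.5-fold that were open to naming, not all of those counted above, gave 994 values under the alternatives. Of these values 983 kept their sign and 882 stayed past 1.5-fold. Either other scaling shifted log2 ratios by no more than 0.13, so it could not reverse the sign of a difference past 1.5-fold. Under every alternative run, 31 of the 83 stayed past it. One alternative kept only clusters with at least 100 nuclei in each library, weighted by their control nuclei. In granule and CA1-like nuclei it left 1 cluster, with 917 of 4430 and 956 of 2251 control nuclei, so it is a value of that cluster and not of the class. Reversed signs were found in it for Kcnk9 (0.78) and Kcnmb2 (0.21) in granule nuclei and Kcnq5 in CA1-like nuclei (0.036), with thinning for Kcnc4 in CA3-like nuclei (-0.69), and with called doublets kept for Kcnip4 in oligodendrocyte-like (-0.44) and Kcnh7 in microglia-like nuclei (0.080). In male nuclei alone they were found for Kcnn3 in MGE interneuron-like (0.20), Kcnq5 in astrocyte-like (-0.22), Kcnab1 (-0.22) and Kcnip4 (-0.22) in radial glia-like and Kcnk2 in subicular nuclei (-0.0061). The causes were not tested.

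Counts of members moved most with no minimum on UMIs, which admits more genes. The share of all genes past the same size under each alternative is not given here. The counts in this paragraph can therefore not be read against a background. Past 2-fold they became 17 in CA1-like, 9 in CA3-like, 13 in granule, 23 in oligodendrocyte-like and 14 in subicular nuclei, and past 1.5-fold 28, 21, 25, 37 and 27. The median log2 ratio in CA1-like nuclei became 0.19. With a minimum of 10 CPM, which admits fewer, the counts past 2-fold were 4 in CA1-like and 2 in granule nuclei and 9 past 1.5-fold in CA1-like nuclei, and the subicular median was 0.19. Thinning to 2000 UMIs gave counts past 2-fold of 4 in CA1-like, 1 in CA3-like and 1 in oligodendrocyte-like nuclei, and past 1.5-fold of 8 in CA1-like and 3 in CA3-like nuclei. Either other scaling gave 1 past 2-fold in CA3-like nuclei. Female nuclei alone gave counts past 2-fold of 4 in CA1-like, 2 in CA3-like, 4 in oligodendrocyte-like and 10 in subicular nuclei, with medians of -0.38 in oligodendrocyte-like and 0.33 in subicular nuclei. Subtracting free RNA, estimated from microglia-like nuclei, gave counts past 2-fold of 1 in CA3-like, 7 in granule and 6 in oligodendrocyte-like nuclei, and a median of -0.021 in the last. The 1 cluster kept of CA1-like nuclei had 4 members past 2-fold, and that of granule nuclei a median of -0.11, and the 2 oligodendrocyte-like clusters, weighted as in the control, had 1 past 2-fold. Keeping called doublets gave 16 past 1.5-fold in oligodendrocyte-like nuclei, and resolution 2 gave a subicular median of 0.16.

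No paired analysis was possible because each group is 1 library, and there was no replicate to leave out. Depth limits the members with under 100 UMIs, whose counting intervals are wide.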
